A study of Caenorhabditis elegans with 16 samples.

Results

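The 5 genes described here, cpr-1, cpr-3, cpr-4, cpr-5 and cpr-6, encode cathepsin B-like cysteine proteases of Caenorhabditis elegans. They were chosen by name and matched by symbol to the gene identifiers of the count files, 5 of 46911 identifiers in all. Earlier results of these data were known when they were chosen. Counts of the 5 set beside shares of all genes are therefore descriptions and not tests. Each of the 5 passed the filter on low values, a level of 1 CPM (a read count scaled to library size) or more in at least 4 libraries, as did 14058 genes in total. Polyadenylated RNA was sequenced from whole starved larvae of the L1 stage, 10000 per library, held at 20 °C and collected 12 h after hatch and 24 h after bleaching of the adults. The 16 libraries form 4 groups of 4. Wild type was strain N2. The irld mutant was strain LRB444, with alleles in a pair of irld genes, irld-39(duk1) and irld-52(duk17). A second mutant, called the daf-2 mutant, was strain CB1370, which carries daf-2(e1370). The triple mutant carries all 3 alleles and was represented by 2 lines made independently, LRB457 and LRB458, each giving 2 libraries, while each other genotype was a single strain. None of the groups had been fed after hatching, wild type included.

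Cathepsin B belongs to the papain family of cysteine proteases, which are made as inactive proenzymes and become active when the propeptide is removed. In mammals it works mainly in the lysosome. In nematodes, genes of this family are also expressed in the intestine, where the enzymes are thought to digest food proteins. CPR-4 of C. elegans has been described as a secreted protease that carries a radiation bystander signal and acts through the insulin/IGF receptor DAF-2. The gene daf-2 encodes that receptor, e1370 is a temperature-sensitive missense allele with reduced function, and the irld genes encode proteins with insulin/EGF-receptor L domains. The FoxO factor DAF-16 is active when DAF-2 signalling is low.

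The 5 genes do not lie in 1 cluster. On WBcel235, cpr-1 (WBGene00000781) lies at chrV:11975551-11976756 on the plus strand, cpr-3 (WBGene00000783) at chrV:15296834-15298700 on the minus strand, and cpr-4 (WBGene00000784) at chrV:6614674-6615851 on the plus strand. The gene cpr-5 (WBGene00000785) lies at chrV:1132598-1134036 on the minus strand, and cpr-6 (WBGene00000786) at chrX:6607207-6609045 on the plus strand. Each has 1 annotated transcript, with between 1078 exonic bases (cpr-1) and 1369 (cpr-3), and none overlaps another protein-coding gene. The end of cpr-1 is 20 bases from mif-2 on the opposite strand. The setting used for strand in counting was not given in the sources used here, so reads of one that run into the other could not be told apart.

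Each library held between 14033534 and 24903552 gene counts, and 35.7% to 38.2% of its reads were not aligned. The missense allele leaves daf-2 transcript in place, with 3649 to 10520 counts per library over all groups, so its level does not check the labels. The irld-39 and irld-52 genes had 1 to 12 counts per library in all groups, too few to check them. On the first principal component, which took 42.4% of the variance, wild type and irld mutant libraries lay between -38.3 and -31.4. Daf-2 mutant replicates 2 and 4 lay at 6.90 and 4.36 and LRB458 replicate 1 at 19, nearer to them than the other libraries with daf-2(e1370), which lay between 38.1 and 61.5. These were whole larvae, so fewer cells of a type and less RNA per cell cannot be told apart in any value below.

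Compared per length of exon, cpr-6 was the most abundant of the 5 transcripts in every group. In wild type it stood at 331 ± 32 CPM per kilobase (SD, n = 4), ahead of cpr-5 at 67.3 ± 7.64, cpr-1 at 50.5 ± 25.9, cpr-4 at 17.2 ± 5.29 and cpr-3 at 10.8 ± 1.99 CPM per kilobase. The wild-type libraries of cpr-5 and cpr-1 overlapped on this scale, as did those of cpr-4 and cpr-3, so neither pair was separated by its spread. Among all genes ranked on this scale in wild type, cpr-6 was number 323 of 14048, cpr-5 number 1326 and cpr-3 number 6037.

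The order was the same in the irld mutant, at 329 ± 37.9 CPM per kilobase for cpr-6, 61.8 ± 11 for cpr-5, 47.1 ± 32 for cpr-1, 17.2 ± 7.43 for cpr-4 and 10.6 ± 0.857 for cpr-3. It was different in the daf-2 mutant, where cpr-6 at 291 ± 19 CPM per kilobase was followed by cpr-3 at 16.6 ± 2.08, cpr-5 at 9.91 ± 1.42, cpr-1 at 7.53 ± 1.54 and cpr-4 at 3.73 ± 3.67. There the libraries of cpr-3 all lay above those of cpr-5, whereas cpr-5 and cpr-1 overlapped, and so did cpr-1 and cpr-4. In the triple mutant cpr-6 stood at 255 ± 9.62 CPM per kilobase, and the other 4 genes overlapped one another, with means of 13.4 for cpr-3, 11.7 for cpr-5, 10.6 for cpr-4 and 8.98 for cpr-1.

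The summed level of the 5 genes was 477 ± 38.4 CPM per kilobase in wild type and 466 ± 26.7 with the irld alleles alone (SD, n = 4). It was 329 ± 17.7 in the daf-2 mutant and 299.7 ± 14.8 CPM per kilobase when all alleles were combined. The share of cpr-6 in that sum was 69.5% ± 5.79 in wild type and 70.8% ± 8.4 in the irld mutant. It was 88.5% ± 1.12 in the daf-2 mutant, and the triple mutant had 85.2% ± 2.47. The lowest cpr-6 share with daf-2(e1370), 82.6%, was above the highest without it, 77.2%.

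**Figure D1:**
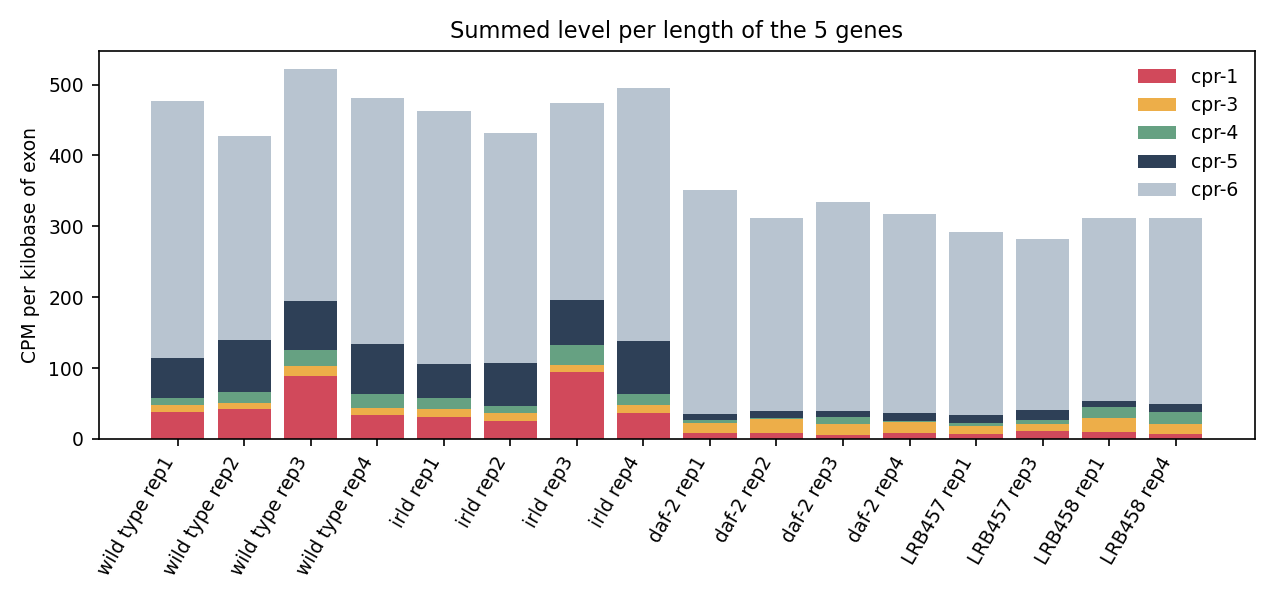
Stacked bars give the level of each of the 5 genes in CPM per kilobase of exon, on a linear axis from 0, in each of the 16 libraries (LRB457 and LRB458 are the lines of the triple mutant). The grey cpr-6 segment makes up most of every bar, and the segments of cpr-1 and cpr-5 are thin in the 8 libraries with daf-2(e1370).

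The irld mutant was compared with wild type to see the effect of the irld alleles where daf-2 is intact. No cathepsin B-like gene was called. The most variable of them was cpr-1, described as an intestinal protease. Its levels in wild-type replicates 1 to 4 were 40.9, 44.9, 95.8 and 36 CPM, and in irld mutant replicates 1 to 4 they were 34.1, 28.0, 102 and 39 CPM. In each group replicate 3 was the highest by far, and the groups overlapped. The log2 fold change of cpr-1 was -0.10 ± 0.39 (SE; 95% interval -0.94 to 0.74; adjusted p = 0.961, edgeR quasi-likelihood test with Benjamini-Hochberg adjustment over all genes, as in every adjusted p below).

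The interval of cpr-6 was the narrowest, with a log2 fold change of -0.01 between irld mutant and wild type (95% interval -0.22 to 0.21). That of cpr-4 was the widest, at -0.00 (-1.2 to 1.19), while cpr-3 stood at -0.03 (-0.46 to 0.40) and cpr-5 at -0.12 (-0.45 to 0.21). A change of 2-fold thus lay within the interval of cpr-4 and outside those of the other 4 genes. None of the 5 had an unadjusted p under 0.05, and DESeq2 called 0 of them. Of all genes tested, 0.00711% were called in this comparison and 6.48% had an unadjusted p under 0.05.

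**Figure D2:**
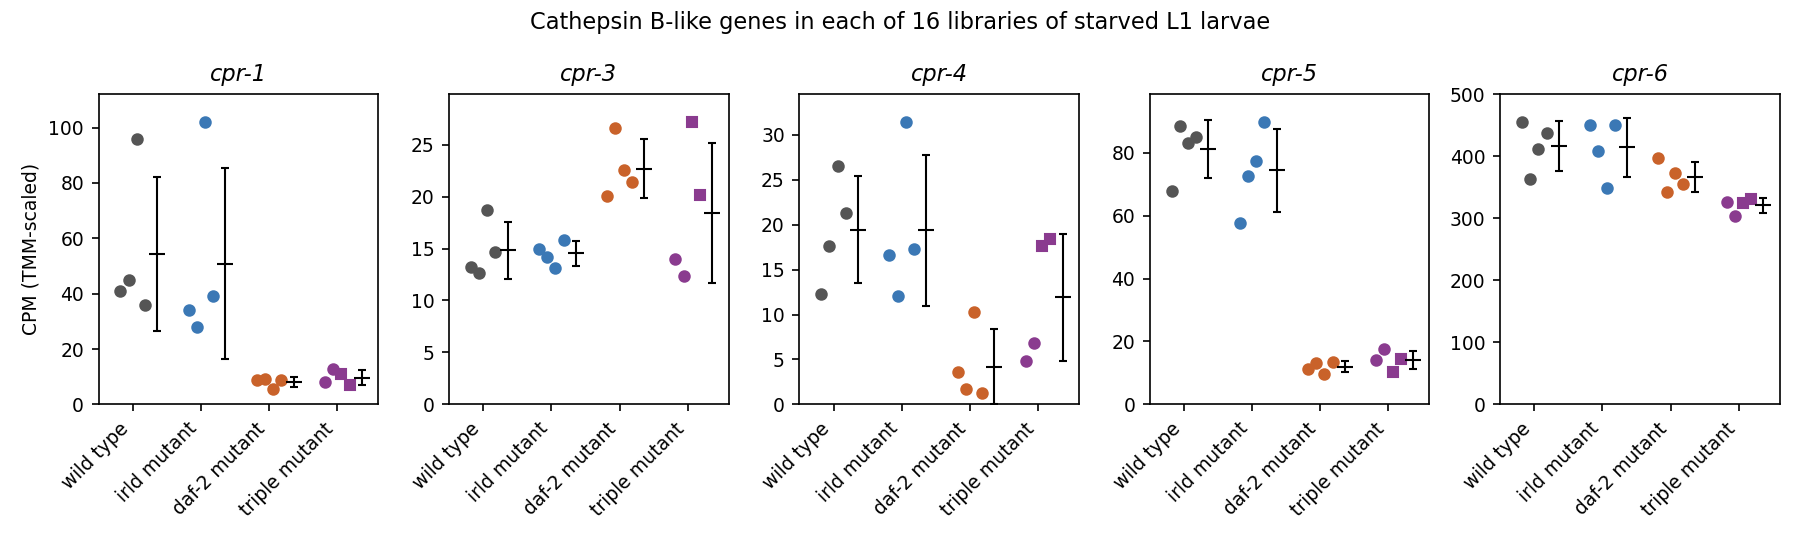
Each panel shows 1 gene, with CPM scaled by TMM on a linear axis from 0. Points are single libraries, squares are those of line LRB458, and the bar beside each group is the mean with SD over 4 libraries. For cpr-1 and cpr-5 all libraries of the daf-2 and triple mutants lie below all others, between 5.64 and 12.7 CPM and between 9.79 and 17.5 CPM.

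Daf-2 mutant and wild-type larvae were compared for the effect of reduced insulin/IGF receptor function during starvation. Transcripts of cpr-1, cpr-4 and cpr-5 were lower, 3 of the 5 genes, where 7.74% of all genes tested were called lower. No member was called higher, against 7.97% of all genes. The median log2 fold change of the 5 was -2.22, and that of all genes was -0.00.

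The levels of cpr-5 were 67.7, 88.5, 83.1 and 85.1 CPM in wild-type replicates 1 to 4 and 11.4, 13, 9.79 and 13.6 CPM in daf-2 mutant replicates 1 to 4. Every wild-type library was thus far above every daf-2 mutant library, and the spread within each group was small. The gene fell by 2.76 ± 0.17 on the log2 scale, 6.78-fold (95% interval of the log2 fold change -3.12 to -2.40; adjusted p = 4.06e-08), and stood at rank 7 of all genes by p.

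The levels of cpr-1 were 8.99, 9.07, 5.64 and 8.77 CPM in daf-2 mutant replicates 1 to 4, against 36 to 95.8 CPM in wild type. The groups did not overlap, and the scatter lay mostly in wild type, where replicate 3 stood apart. The gene fell by 2.74 ± 0.43 on the log2 scale, 6.69-fold (-3.66 to -1.82; adjusted p = 0.000612). Its neighbour mif-2, which encodes a homologue of macrophage migration inhibitory factor, fell by 0.55 (adjusted p = 0.0457).

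The levels of cpr-4, the secreted family member, were 12.3, 17.6, 26.5 and 21.3 CPM in wild-type replicates 1 to 4. In daf-2 mutant replicates 1 to 4 they were 3.62, 1.67, 10.2 and 1.32 CPM, from 58, 27, 158 and 25 counts. All daf-2 mutant libraries lay below all wild-type libraries, but replicate 3 was close to the lowest of them. The gene fell by 2.22 ± 0.60 on the log2 scale, 4.66-fold (-3.52 to -0.92; adjusted p = 0.0232). Without daf-2 mutant replicate 1, 2 or 4 the log2 fold change was -2.16, -1.96 and -1.91, and the call was lost (adjusted p = 0.0654, 0.0596 and 0.0553). Without replicate 3 it was -3.15 (0.00219). The call was also lost without a filter on low counts (0.0712). The lowest levels were in replicates 2 and 4, which also lay low on the first principal component. With these and LRB458 replicate 1 left out, an alternative chosen after seeing the data, the log2 fold change was -1.49 (adjusted p = 0.109).

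The levels of cpr-3 were 13.2, 12.6, 18.7 and 14.7 CPM in wild-type replicates 1 to 4 and 20.1, 26.6, 22.6 and 21.4 CPM in daf-2 mutant replicates 1 to 4. It was the only one of the 5 with a higher mean in the daf-2 mutant, and the libraries of the groups did not overlap. The log2 fold change was 0.61 ± 0.20 (0.18 to 1.04), which narrowly missed the threshold (adjusted p = 0.0501). DESeq2 called it (adjusted p = 0.0308). Of the 5 genes, 4 thus had groups of libraries that did not overlap, 3 lower and 1 higher, where 8.81% of all genes were without overlap and lower and 9.45% without overlap and higher.

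The levels of cpr-6 were 456, 363, 412 and 438 CPM in wild type and 397, 342, 372 and 355 CPM in the daf-2 mutant, replicates 1 to 4. The groups overlapped, and the log2 fold change was -0.19 ± 0.10 (-0.40 to 0.03; adjusted p = 0.232).

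The triple mutant was compared with the irld mutant for the same change in daf-2 where both groups carry the irld alleles. This comparison shares no library with that of the daf-2 mutant and wild type. Again 3 of the 5 genes were lower and none was called higher, where 8.64% of all genes were called lower and 9.8% higher, but here they were cpr-1, cpr-5 and cpr-6. Lower in both comparisons were cpr-1 and cpr-5, as were 5.01% of all genes tested.

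The levels of cpr-5 were 57.8, 72.7, 77.2 and 89.9 CPM in irld mutant replicates 1 to 4. In the triple mutant they were 14.2 and 17.5 CPM in the libraries of LRB457 and 10.4 and 14.4 CPM in those of LRB458. Both lines were far below the irld mutant. The gene fell by 2.40 ± 0.17 on the log2 scale, 5.28-fold (-2.75 to -2.05; adjusted p = 2.39e-07), and was again at rank 7 of all genes by p.

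The levels of cpr-1 in the triple mutant were 8.03 and 12.7 CPM in LRB457 and 10.9 and 7.10 CPM in LRB458, against 28.0 to 102 CPM in the irld mutant. The lines overlapped each other and neither overlapped the irld mutant. The gene fell by 2.40 ± 0.42, 5.26-fold (-3.3 to -1.49; adjusted p = 0.00131), and without irld mutant replicate 3 it fell by 1.80 (0.00157). Here mif-2 beside it was not called (log2 fold change -0.05; adjusted p = 0.892).

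The levels of cpr-6 were 450, 408, 349 and 451 CPM in irld mutant replicates 1 to 4, and 326 and 304 CPM in LRB457 and 325 and 331 CPM in LRB458. All triple mutant libraries lay below all irld mutant libraries, by a small margin. The gene fell by 0.37 ± 0.10 on the log2 scale, 1.29-fold (-0.58 to -0.15; adjusted p = 0.0186). This call was lost in 8 of 27 alternatives, among them leaving out irld mutant replicate 1 (adjusted p = 0.0779), irld mutant replicate 4 (0.0655), LRB457 replicate 3 (0.0612), line LRB457 (0.153) or line LRB458 (0.0904).

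The remaining genes, cpr-4 and cpr-3, had levels that did not overlap between the lines of the triple mutant. Levels of cpr-4 were 4.87 and 6.81 CPM in LRB457 and 17.6 and 18.4 CPM in LRB458, against 16.6, 12.1, 31.5 and 17.3 CPM in irld mutant replicates 1 to 4. The libraries of LRB457 lay below the irld mutant and those of LRB458 within its range. Over both lines the log2 fold change was -0.69 ± 0.56 (-1.89 to 0.51; adjusted p = 0.455). Without line LRB457 it was -0.10 (adjusted p = 0.948) and without line LRB458 it was -1.73 (0.139).

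Levels of cpr-3 were 14 and 12.3 CPM in LRB457 and 27.2 and 20.1 CPM in LRB458, against 15.0, 14.1, 13.1 and 15.9 CPM in irld mutant replicates 1 to 4. Here LRB457 lay near the irld mutant and LRB458 above it. The log2 fold change of cpr-3 over both lines was 0.34 ± 0.20 (-0.08 to 0.77; adjusted p = 0.269). Without line LRB457 it was 0.71 (adjusted p = 0.0183) and without line LRB458 it was -0.14 (0.681). With 2 libraries a line, the difference between the lines was given no test. The other 3 genes overlapped between the lines, with means in LRB457 and LRB458 of 10.4 and 8.98 CPM for cpr-1, 15.8 and 12.4 CPM for cpr-5, and 315 and 328 CPM for cpr-6.

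Of the 5 genes, 3 had groups of libraries that did not overlap between triple and irld mutant, all lower, where 13.9% of all genes were without overlap and lower.

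**Figure D3:**
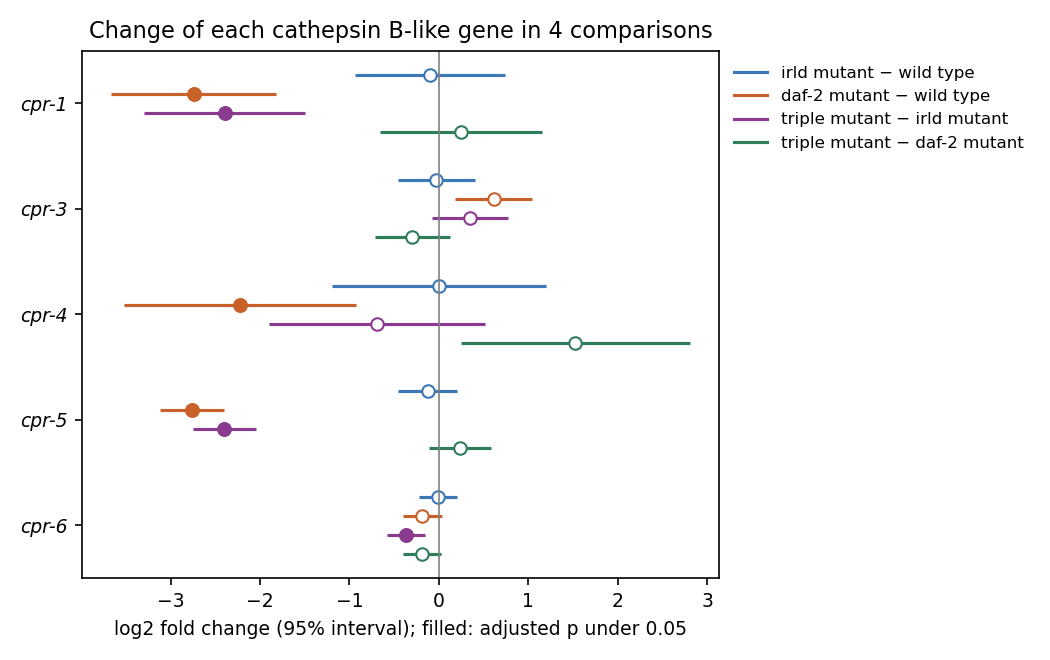
Log2 fold changes of the 5 genes in 4 comparisons with 95% intervals, on a linear axis in log2 units. Filled points passed an adjusted p under 0.05 and open points did not. The 2 comparisons for daf-2(e1370), in orange and purple, lie at -2.76 and -2.40 for cpr-5 and at -2.22 and -0.69 for cpr-4.

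The triple mutant was compared with the daf-2 mutant to see what the irld alleles change where daf-2 is mutated, and the interaction asked whether that differs from their change in wild type. No cathepsin B-like gene was called between triple and daf-2 mutant, where 0.0925% of all genes were, and DESeq2 called 0 of the 5. The gene cpr-4 had an unadjusted p under 0.05, the only one of the 5, where 6.51% of all genes did. Its log2 fold change was 1.53 ± 0.60 (0.24 to 2.81; unadjusted p = 0.0231 and adjusted p = 0.731, edgeR), and the groups overlapped, from 1.32 to 10.2 CPM in the daf-2 mutant and from 4.87 to 18.4 CPM in the triple mutant. Without line LRB458 this value was 0.49, without line LRB457 it was 2.11, and without daf-2 mutant replicate 3 it was 2.46 (adjusted p = 0.963, 1.000 and 0.179). The libraries of cpr-6 did not overlap, all lower in the triple mutant, as did 4.3% of all genes, but its log2 fold change of -0.19 ± 0.10 did not pass (adjusted p = 0.780). The other log2 fold changes between triple and daf-2 mutant were 0.25 for cpr-1 (-0.65 to 1.15), -0.30 for cpr-3 (-0.72 to 0.13) and 0.24 for cpr-5 (-0.11 to 0.59).

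The interaction was taken as the change from daf-2 mutant to triple mutant less the change from wild type to irld mutant. It equals the daf-2(e1370) change with the irld alleles less that without them, so it tests whether cpr-4 and cpr-6 differed between those comparisons. None of the 5 was called and none had an unadjusted p under 0.05, and DESeq2 called 0, where 0.064% of all genes were called and 6% had an unadjusted p under 0.05. The interaction was 1.53 ± 0.82 for cpr-4 (-0.22 to 3.28; adjusted p = 0.763) and -0.18 ± 0.14 for cpr-6 (-0.49 to 0.12; 0.768). That of cpr-4 was 0.49 without line LRB458, 2.11 without line LRB457 and 2.46 without daf-2 mutant replicate 3 (adjusted p = 0.898, 0.938 and 0.442). For cpr-1, cpr-3 and cpr-5 it was 0.35, -0.27 and 0.36 (adjusted p = 0.867, 0.810 and 0.766). The change of cpr-4 in the daf-2 mutant was therefore not shown to differ from that in the triple mutant, and its interval reaches from slightly below 0 to a large difference. In the authors' deposited table of the same interaction, which takes the difference with the opposite sign, the values were -0.41 for cpr-1, 0.22 for cpr-3, -1.59 for cpr-4, -0.42 for cpr-5 and 0.13 for cpr-6. The false discovery rate in the authors' deposited table was 0.767 or more for each of them.

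The triple mutant was also compared with wild type, which shares its libraries with comparisons above. There cpr-1 fell by 2.49 ± 0.42, cpr-5 fell by 2.52 ± 0.17 and cpr-6 fell by 0.38 ± 0.10 on the log2 scale (adjusted p = 0.00102, 1.79e-07 and 0.0157), 3 of the 5 genes, where 10.4% of all genes were called lower. The log2 fold changes of cpr-3 and cpr-4 were 0.32 (-0.11 to 0.74; adjusted p = 0.299) and -0.69 (-1.90 to 0.51; 0.426).

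Other genes listed as cathepsin B-like moved lower too where they changed. Of 10 names, 6 were tested and the others were not matched. In this and the next lists, values for the daf-2 mutant are against wild type and come first, and those for the triple mutant are against the irld mutant. Of all genes tested, 7.97% were called higher and 7.74% lower in the daf-2 mutant, and 9.8% and 8.64% in the triple mutant. Of the 6, 4 were lower in the daf-2 mutant and none higher, with a median log2 fold change of -1.23. In the triple mutant 3 were lower than the irld mutant, with a median of -0.79, where the median of all genes was -0.01. The gene cpr-8 had 39 to 55 counts per library in wild type and 5 to 15 in the daf-2 mutant, and fell by 2.55 ± 0.38 (adjusted p = 0.000257), and by 1.60 ± 0.35 in the triple mutant (0.00496). F32H5.1 fell by 1.57 ± 0.12 and 1.31 ± 0.12 (adjusted p = 6.51e-07 and 3.58e-06). W07B8.4 had 22 to 69 counts per library in wild type and 5 to 13 in the daf-2 mutant. It fell by 2.47 ± 0.53 in the daf-2 mutant (0.00437) and was at -1.23 ± 0.50 in the triple mutant (0.0994). Both cpr-8 and W07B8.4 were under 1 CPM in every daf-2 mutant library. They passed the filter on low values only through other groups, which favours a lower call there. Y65B4A.2 fell by 0.37 and 0.34 (0.0340 and 0.0432). Its call in the triple mutant was lost under each of the 3 other scalings (adjusted p = 0.0543, 0.0578 and 0.212), which left 2 of the 6 lower there, and its call in the daf-2 mutant was lost without TMM factors (0.103), which left 3.

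The cpr-5 gene lies between W07B8.4, 667 bases away, and cpr-8, 565 bases away. All 3 of these genes were lower in the daf-2 mutant, and cpr-5 and cpr-8 were also lower in the triple mutant than in the irld mutant. The values of W07B8.4 and cpr-8 rest on few counts and carry the limit of the filter given above.

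The most abundant of the other members of the family were cpr-2 and cpr-9. In wild type cpr-2 stood at 419 ± 110 CPM per kilobase and cpr-9 at 221 ± 64.1, so only cpr-6 of the 5 described genes reached their levels. Neither was called. The log2 fold changes of cpr-2 were -0.88 ± 0.43 in the daf-2 mutant (adjusted p = 0.185) and -0.27 ± 0.43 in the triple mutant (0.737), and those of cpr-9 were -0.21 ± 0.22 (0.542) and 0.06 ± 0.22 (0.889). The libraries of cpr-2 ranged from 306 to 553 CPM in wild type and from 125 to 425 CPM in the daf-2 mutant. The 5 genes made up 41.5% of the summed CPM per kilobase of the 11 genes in wild type and 47.4% in the irld mutant, 43.2% in libraries of the daf-2 mutant and 39.4% in those of the triple mutant.

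Other cysteine cathepsins that were called were lower. Of 8 tested, 6 were lower in the daf-2 mutant than wild type and 4 in the triple mutant than the irld mutant, with none higher and medians of -0.53 and -0.41. Without TMM factors 5 were lower in the daf-2 mutant. The cathepsin L gene cpl-1 fell by 0.60 and 0.61 on the log2 scale (adjusted p = 0.00242 and 0.00177). The gene tag-196, which encodes a cathepsin F-like protease, fell by 0.67 and 0.51 (0.000612 and 0.00409). Y40H7A.10 fell by 2.82 ± 0.51 and 2.60 ± 0.49 (0.00123 and 0.00163), near the floor. It had 0.75 to 1.44 CPM in wild type and 0.06 to 0.25 CPM in the daf-2 mutant. It passed the filter on low values only through libraries without daf-2(e1370), which favours a lower call.

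Endogenous inhibitors that were called were higher. Of 8 tested cystatin and serpin genes, 4 were higher in the daf-2 mutant than wild type and 4 in the triple mutant than the irld mutant, with none lower, where 7.97% and 9.8% of all genes were higher. The median log2 fold changes were 0.60 and 0.64. With the 3 other scalings 3 to 4 inhibitors were higher in the daf-2 mutant and 4 to 5 in the triple mutant, with none lower. The cystatin gene cpi-1, whose product inhibits papain-family proteases, rose by 1.73 ± 0.19 and 1.90 ± 0.19 (adjusted p = 2.00e-05 and 1.05e-05). The other cystatin gene, cpi-2, was at 0.20 ± 0.12 in the daf-2 mutant (0.260) and rose by 0.45 ± 0.12 in the triple mutant (0.0130). The serpin gene srp-1 rose by 1.90 and 1.46 (0.00144 and 0.00679), and srp-2 rose by 1.01 and 0.84 (0.000977 and 0.00329). Levels of srp-1 were low, 0.47 to 1.65 CPM in wild type and 2.33 to 3.87 CPM in the daf-2 mutant. They were 0.61 to 1.60 CPM in the irld mutant and 2.66 to 3.26 CPM in the triple mutant. Every library with daf-2(e1370) was thus above 1 CPM, while both other groups had libraries below it. The filter on low values therefore favours a higher call for srp-1. The gene srp-3 rose by 1.19 in the daf-2 mutant (0.0457) and was at 0.99 in the triple mutant (0.0844). Neither srp-7 (0.13 and 0.18) nor srp-8 (-0.12 and -0.46) was called (0.345 and 0.184, then 0.751 and 0.145). The gene srp-6, a serpin known to inhibit lysosomal cysteine proteases, was at 0.12 and 0.16 and was not called (0.400 and 0.261).

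**Figure D4:**
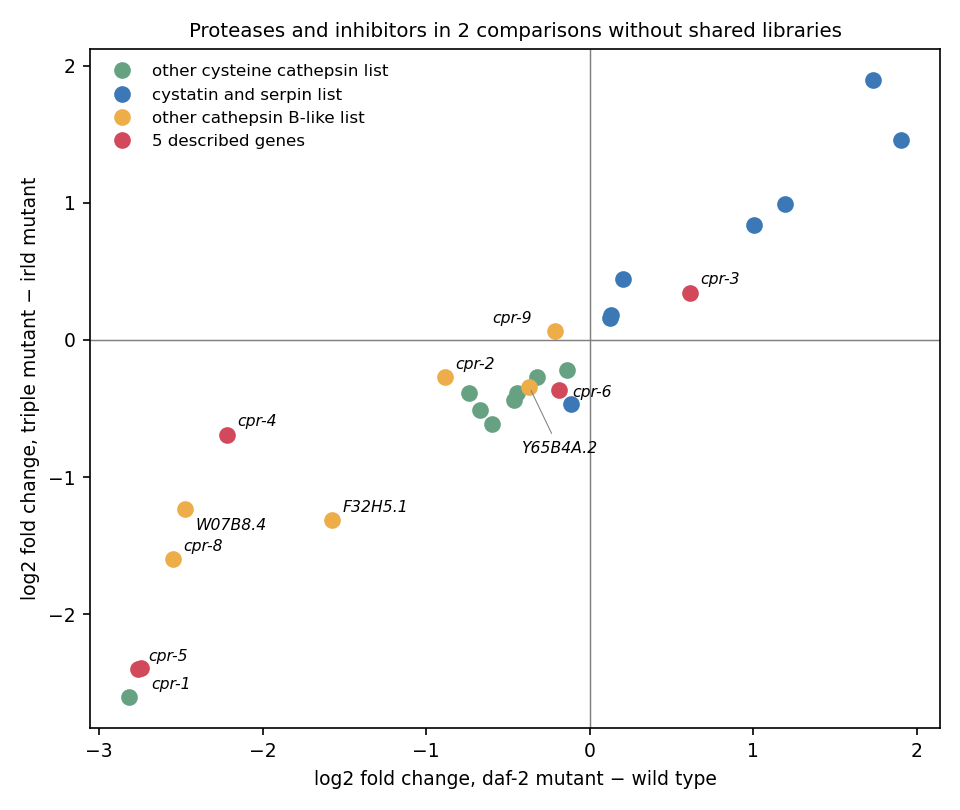
Each point is a gene, with its log2 fold change between daf-2 mutant and wild type on the horizontal axis and between triple and irld mutant on the vertical axis, for the 5 described genes, 6 other cathepsin B-like genes, 8 other cysteine cathepsins and 8 cystatins and serpins. The cathepsin genes lie mostly at the lower left, where cpr-1 (-2.74, -2.40) and cpr-5 (-2.76, -2.40) almost coincide, and cpi-1 (1.73, 1.90) is at the upper right.

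Aspartyl proteases, which also work in the lysosome and the gut, were lower in 5 of 12 tested in the daf-2 mutant and 3 of 12 in the triple mutant, with medians of -0.37 and -0.35. The shares of all genes were 7.74% and 8.64% lower, and 7.97% and 9.8% higher. None was higher with TMM scaling, and under each other scaling tried 1 was higher in the triple mutant. The gene asp-14 fell by 2.00 and 2.30, and asp-1 by 1.00 and 1.03 (adjusted p = 2.17e-05, 7.78e-06, 0.00217 and 0.00150). Of 27 other peptidases and peptide transporters tested, 1 was higher and 4 lower in the daf-2 mutant and 1 higher and 6 lower in the triple mutant, with medians of 0.01 and -0.14. Among the lower was ctsa-1.2, whose log2 fold changes were -1.40 and -1.31 (0.000143 and 0.000238).

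Other lysosomal genes were called in both directions. The shares of all genes were 7.97% higher and 7.74% lower in the daf-2 mutant, and 9.8% and 8.64% in the triple mutant. Of 37 tested, 4 were higher and 7 lower in the daf-2 mutant and 4 higher and 9 lower in the triple mutant, with medians of 0.02 and -0.07. Under the 3 other scalings 2 to 3 were higher in the first comparison and 4 in the second. Log2 fold changes over this list, called or not, ran from -1.71 to 1.06 in the first comparison and from -1.46 to 2.59 in the second. Those that fell included the acid ceramidase gene asah-2 (by 1.36 and 1.46; adjusted p = 2.44e-05 and 1.56e-05) and the lysosomal DNase gene nuc-1 (by 0.97 and 1.12; 0.000421 and 0.000112). Of 20 subunits of the V-ATPase, the pump that acidifies the lysosome, none was called in the daf-2 mutant by edgeR (2 with an unadjusted p under 0.05, 0 by DESeq2), and 1, vha-6, was lower in the triple mutant (-0.58; adjusted p = 0.0214). The gene vha-6 is also on the intestine list, where it is among the 6 lower in the triple mutant. The medians of the V-ATPase list were 0.04 and 0.02. Without TMM factors 1 subunit was higher in the daf-2 mutant, and 3 were higher and 1 lower in the triple mutant.

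Markers of the intestine were measured beside these values, because family members are expressed there. Of 25 tested, 3 were higher and 4 lower in the daf-2 mutant and 6 higher and 6 lower in the triple mutant, with medians of 0.15 and 0.06. The shares of all genes were 7.97% higher and 7.74% lower, then 9.8% and 8.64%. The summed level of the list ranged from 4667 to 7405 CPM in wild type and 5348 to 6579 CPM with the irld alleles. Daf-2 mutant libraries had 5381 to 6426 CPM, and 4949 to 5584 CPM in triple mutant libraries. The early specification genes end-1 and end-3 were too low to test. The intestinal actin gene act-5 rose by 1.05 and 1.12 (adjusted p = 0.000141 and 8.04e-05), and the gut esterase gene ges-1 fell by 0.84 and 0.88 (6.96e-05 and 4.61e-05). The metallothionein gene mtl-2 fell by 2.21 ± 0.34 and 1.73 ± 0.34 (0.000470 and 0.00244). The gene elt-2, which encodes the GATA factor of the intestine, was at 0.32 and 0.36 and was not called (0.200 and 0.138).

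Of 12 markers each, those of body muscle had 1 higher in the daf-2 mutant and 2 higher in the triple mutant, those of neurons 0 called by edgeR (3 with an unadjusted p under 0.05, 3 by DESeq2) and 2 lower, those of the pharynx 1 lower and then 1 higher and 1 lower, and those of the germline 1 higher and 0 called by edgeR (0 with an unadjusted p under 0.05, 0 by DESeq2). Of 10 epidermal markers 2 were higher in each. A single marker of 12, 8.33%, is near the shares of all genes, 7.97% higher and 7.74% lower, then 9.8% and 8.64%. Of 16 transcription factors of the gut, lysosome and insulin pathway, 1 was lower in the daf-2 mutant, and 1 was higher and 3 lower in the triple mutant. The TFEB homologue hlh-30 (-0.01 and -0.24; adjusted p = 0.964 and 0.274) and daf-16 (0.17 and -0.24; 0.480 and 0.291) were not called, and the nuclear receptor gene nhr-8 fell by 0.74 and 0.72 (0.000968 and 0.00115). None of these lists, proteases and inhibitors included, had a gene called by edgeR or DESeq2 between irld mutant and wild type, between triple and daf-2 mutant or in the interaction. In edgeR 0 to 5 genes a list had an unadjusted p under 0.05, where 6.48%, 6.51% and 6% of all genes did. The highest counts were 5 of 37 lysosomal genes and 4 of 25 intestine markers, both between triple and daf-2 mutant.

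Across the 16 libraries the log2 CPM of cpr-1 and cpr-5 had a Pearson correlation of 0.93. With each group's mean removed it was 0.26, so most of it came from the difference between genotypes, which the libraries share. The genes cpr-4 and cpr-5 had 0.64 over all libraries and -0.41 within groups, and cpr-3 and cpr-5 had -0.66 and -0.41. The ratio of cpr-1 to cpr-5 per kilobase lay between 0.430 and 0.674 in wild-type and irld mutant libraries other than replicate 3, where it was 1.29 and 1.48, so the high cpr-1 of those libraries was not matched by cpr-5. In the 8 libraries with daf-2(e1370) the ratio lay between 0.553 and 1.17.

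Among 9400 genes with a mean of at least 5 CPM, those with the pattern most like each member were named by their Pearson correlation of log2 CPM over the 16 libraries, which share depth, scaling and genotype. For cpr-5 they were tre-3 (0.98), which encodes a trehalase, taf-10 (0.97) and W02B12.1 (0.97), and with each group's mean removed the values were 0.63, 0.24 and 0.10. For cpr-1 they were C14A11.2 (0.96), phat-3 (0.96) and asah-2 (0.95), and within groups the values were 0.74, 0.77 and 0.66. The gene phat-3 is on the pharynx list and fell by 2.62 ± 0.39 in the daf-2 mutant against wild type and fell by 1.90 ± 0.38 between irld and triple mutant (adjusted p = 0.000404 and 0.00305).

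The pattern of cpr-3 was most like that of clec-1 (0.90), a C-type lectin gene, kat-1 (0.87) and F31F7.1 (0.86), at 0.80, 0.78 and 0.74 within groups. That of cpr-4 was most like T26C5.3 (0.92), the nuclear receptor gene nhr-105 (0.90) and xbp-1 (0.88), which encodes a factor of the unfolded protein response, at 0.76, 0.82 and 0.73 within groups. For cpr-6 the leading genes were F21A3.11 (0.95), C11D2.3 (0.89) and cpd-1 (0.89), at 0.86, 0.69 and 0.80 within groups. The genes most like each member were picked as the highest of 9400 over the same 16 libraries. That choice can raise the values within groups too, so those are no separate support.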

How the data were processed

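Per the labels' protocols, TRIzol was used for extraction, ERCC spike-ins were added, and polyadenylated RNA went into NEBNext Ultra II libraries. Per the deposited file notes, the authors aligned reads with Bowtie 1.2.2 to the WS273 genome (-k 1, -m 2) and counted genes with HTSeq 0.11.2. A read with 2 places kept 1 of them, which could move reads between near-identical genes. The deposited files hold unscaled counts per gene. The authors' deposited table of the interaction comes from edgeR 3.24.4 and lists a log2 fold change, a score (F), a p-value and an adjusted p-value per gene. A further 32 deposited columns of values were not used.

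Counts of the 16 libraries were scaled with TMM and fitted in 1 quasi-likelihood model of 4 groups (edgeR 4.0.16, R 4.3.3). The 5 summary entries stayed out of library sizes and tests; reads without a gene were 40.4% to 42.4% of each library. The tests covered the 14058 genes that reached 1 CPM in at least 4 libraries, and p was adjusted over all of them (Benjamini-Hochberg, called under 0.05). SE is the absolute log2 fold change divided by the root of F, and 95% intervals use the t distribution. Log2 CPM used a prior count of 2. Exon lengths and positions are from Ensembl 115 (WBcel235), later than the gene set used for counting.

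In a test on simulated data (daf-2 mutant against wild type, 14058 genes), 67, 67 and 66 genes were changed by 1.5-fold, 2-fold and 4-fold. Of these 22.4%, 61.2% and 86.4% were called, with 3 false calls among 13858 unchanged genes. Far more genes were called in the real comparison, 1121 higher and 1088 lower, which changes the adjustment of p. These rates therefore need not hold there. Named genes were chosen by a rule, and not every gene it gives is printed: the 5 described genes, all tested cathepsin B-like genes and inhibitors, up to 4 called genes per list with the smallest adjusted p, elt-2, hlh-30 and daf-16, and the 3 genes most like each described gene. Neighbouring genes were added after their values were seen. The members, lists and tests were chosen with earlier results of these data known. Alternatives were other scalings, filters, DESeq2 1.42.0, the replicate number as a block, only the groups compared, and lines or libraries left out. No promoter or protein sequence was used here.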

Additional observations from a re-analysis of the deposited data

Results flagged for a closer look

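Of 20 sets of 4 libraries (5 genes in 4 groups), 3 held a library far from the others by Dixon's ratio, where chance flags about 1 in 20, and all 3 were of cpr-1. Wild-type replicate 3 had 95.8 CPM of cpr-1, against 36 to 44.9 CPM in the other wild-type libraries. Irld mutant replicate 3 had 102 CPM, against 28.0 to 39 CPM. Daf-2 mutant replicate 3 had 5.64 CPM, below the others at 8.77 to 9.07 CPM. In these libraries cpr-5 stood at 83.1, 77.2 and 9.79 CPM. The highest level of cpr-4 in each of these groups was also in replicate 3, at 26.5, 31.5 and 10.2 CPM.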

How the results depend on the processing

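The lower calls of cpr-1 and cpr-5 held in all 27 alternatives in daf-2 mutant and wild type, triple and irld mutant, and triple mutant and wild type, with log2 fold changes of -2.93 to -2.33 and -2.60 to -1.80 for cpr-1 and -2.94 to -2.68 and -2.58 to -2.23 for cpr-5 in the first and second. Over the 5 genes and all comparisons, 757 of 805 values kept their direction and side of the threshold, and none of the 19 that turned direction had been called. The number of members called higher in the daf-2 mutant was 1 in place of 0, the gene cpr-3, with DESeq2, with edgeR's own filter, with only the groups compared, without line LRB457 and without line LRB458, and 0 to 1 with single libraries left out. Without line LRB457 it was also 1 between triple and irld mutant and between triple mutant and wild type (cpr-3, 0.71 and 0.68). Without LRB457 cpr-3 turned to 0.0622 between triple and daf-2 mutant and to 0.0915 in the interaction, and without LRB458 to -0.14 and -0.17 for triple against irld mutant and for triple mutant against wild type. With library sizes without TMM factors cpr-4 turned to 0.00933 between irld mutant and wild type. With single libraries left out, the irld mutant against wild type ranged from -0.69 to 0.31 for cpr-1, -0.11 to 0.10 for cpr-3, -0.34 to 0.17 for cpr-4 and -0.0754 to 0.064 for cpr-6, and the interaction of cpr-1 from -0.038 to 0.94. The cpr-6 call in the triple mutant against wild type was lost in 5 alternatives (adjusted p up to 0.134), and against the irld mutant also without TMM factors (0.0557), without a filter (0.0846) and without the 3 libraries low on the first component (0.0538). The cause was not tested.

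Replicate numbers were not used to pair the libraries in the main model. Over all genes, residuals of 24 same-number pairs correlated from -0.46 to 0.31 (median 0.03), with 9 above 0.1. Those of 72 pairs with different numbers ran from -0.45 to 0.52 (median -0.01), with 18 above 0.1. A replicate effect on single genes was not tested. With the replicate number as a block, 3 members were lower and 0 higher in each of those 3 comparisons, as without it, and cpr-1 and cpr-5 stood at -2.56 and -2.76 in the first.

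Library sizes without TMM factors gave 1320 genes higher and 935 lower in the daf-2 mutant (1121 and 1088 with them) and 1710 and 871 for triple against irld mutant (1378 and 1215). With only the groups compared, 614 and 561 genes were called in the daf-2 mutant. Counts of cpr-4 were low, at 25 to 58, in 3 daf-2 mutant libraries. The SD of its CPM was 98.4% of the mean for that genotype. It was 43.3% of the mean among irld mutant libraries, which held 171 to 518 counts of the gene. How much of the spread of cpr-4 is counting error was not tested.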
